A study of Mus musculus with 4 samples.

Results

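Serpinf1, Serpinh1, Fkbp10, Crtap, P3h1, Ppib, Tmem38b, Creb3l1, Sparc and Bmp1 are genes whose loss causes recessive brittle bone disease (osteogenesis imperfecta), and most of their proteins fold, modify, export or trim type I procollagen. These 10 genes were taken by symbol from a table of 55487 mouse genes, and all 10 were found and passed the low-count filter. The list was chosen by function with the measured difference between knockouts and controls in view, that of Serpinf1 above all. Their CPM and fold changes in that contrast are therefore given as a description, with standard errors and no p-value. RNA came from cells of the lower incisor of C57 mice at postnatal day 30, sorted to lack CD45, Ter119 and Tie2 and labelled as dental progenitor cells of the dental pulp. The 2 control libraries carried floxed Ptip alleles and no Cre (Ptipf/f), and the 2 knockout libraries carried the same floxed alleles with Sp7-cre (Ptipf/f;Sp7-cre). Sp7 is a gene of the osteoblast and odontoblast lineages, and in which cells of these samples the Cre acted was not measured. As the controls had no Cre, effects of losing Ptip and of Cre itself cannot be told apart. Whether each library is a separate mouse is not in the labels, so errors measure only the spread between these libraries.

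Type I procollagen is assembled from 2 kinds of chain, encoded by Col1a1 and Col1a2, in the endoplasmic reticulum (ER). Prolyl and lysyl hydroxylases modify the chains, prolyl isomerases and the chaperone HSP47 help the triple helix to fold, and the folded molecule leaves in large COPII carriers. Outside the cell its end pieces are cut off and the molecules join into fibrils, the main scaffold of bone and dentin. Defects at any of these steps give bone that breaks easily, and some forms also give dentin defects.

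Total counts per library ran from 15154246 to 19142757, where a count of 3 equals 0.157 to 0.198 CPM (counts scaled to a common library size). Paxip1, the gene of Ptip, had 28.3 and 44.3 CPM in the controls but 5.69 and 3.98 in the knockouts, 7.50-fold lower. Pairs of values are given here and throughout as library 1, then library 2. Of the surface proteins in the sort, Ptprc (CD45) had 140.4 and 144 CPM in controls and 39.2 and 9.25 in knockouts, and Tek (Tie2) 21.7 and 81.2 against 44.8 and 41.8. Marker lists of other cell types moved with genotype. Markers are counted here as lower or higher if their groups did not overlap. By that rule 24.9% of all 17128 tested genes were lower and 25.8% higher. Leukocyte markers (9 of 12 lower in both knockouts) summed to 4485 and 1426 CPM in controls against 655 and 228 in knockouts, and erythroid markers (7 of 8 lower) to 409 and 386 against 97.3 and 102. Odontoblast sums, given with the collagen chains, were also lower in each knockout than in either control. So were endothelial sums, given with the PEDF receptors, but with 3 of 8 markers lower this list was not far above the 24.9% of all genes. Schwann cell sums were lower too (470.1 and 616 CPM against 244 and 277), but not as a whole list. Of the 8 Schwann cell markers 3 were lower and 2 higher in both knockouts, and the median log2 fold change of the 7 tested was 0.023. Dental mesenchyme markers (6 of 8 higher) summed to 1393 and 1751 CPM against 4332 and 3978. Dental epithelium markers (6 of 10 lower) summed to 63600 and 22812 CPM in controls and 34901 and 42074 in knockouts, mostly Ambn, the ameloblastin gene of enamel-forming cells, although the label names progenitor cells of the pulp. No marker list had a gene at 0 in all libraries. In such mixed samples, fewer cells of a type and less RNA per cell cannot be told apart, and the part of these shifts in the results was not tested.

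**Figure D1:**
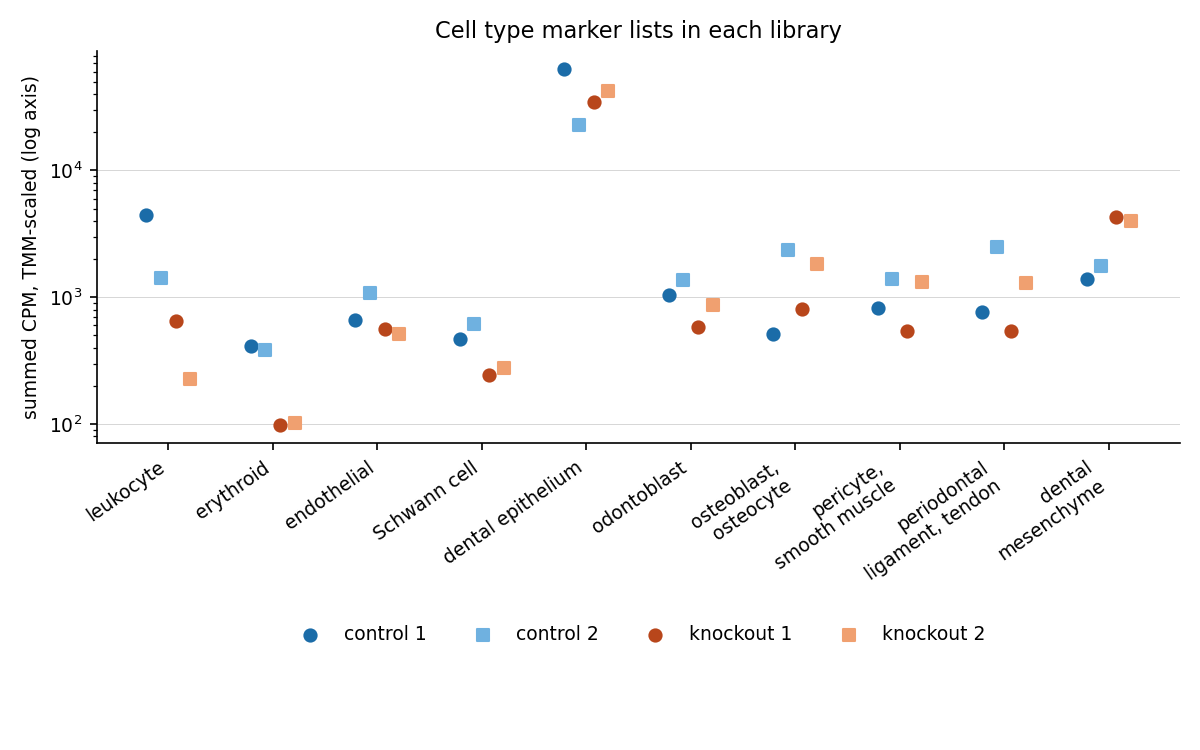
Summed CPM (log axis) of 10 marker lists, with 1 point per library. Leukocyte, erythroid, endothelial, odontoblast and Schwann cell sums were lower, and dental mesenchyme sums higher, in each knockout than in either control.

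The sequences just before the start sites show what the promoters of these genes have in common and where they differ. The RefSeq promoter table (GRCm38.p6) held 6 of the 10 genes. Up to 250 bases before the start are shown for 5 of them, without bases that lie in exons of protein-coding genes; the window of Sparc lay mostly in such exons. For Serpinf1 the 78 bases next to the RefSeq start were left out in this way. They lie inside the coordinates given for Serpinf1 below, so its RefSeq start differs from the end of those coordinates. The sequences are written 5′ to 3′ on the strand of the gene, and matches on the other strand are capitalised as they read here. Capitals mark the letters of 6 motifs searched on both strands: CCAAT, the GC box GGGCGG, the TATA box TATAAA, the RUNX core TGTGGT, the ER stress response element (CCAAT and CCACG with any 9 bases between them) and the unfolded protein response element TGACGTGG. The positions are chr11:75422702-75422873 (minus strand) for Serpinf1, chr7:99353240-99353489 (minus) for Serpinh1, chr9:114390713-114390962 (minus) for Crtap, chr4:119232713-119232914 (plus) for P3h1 and chr9:66059919-66060168 (plus) for Ppib.
Serpinf1: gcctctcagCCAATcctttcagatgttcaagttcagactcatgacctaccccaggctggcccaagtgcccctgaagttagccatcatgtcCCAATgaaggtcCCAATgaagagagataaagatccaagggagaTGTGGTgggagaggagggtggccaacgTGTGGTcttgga
Serpinh1: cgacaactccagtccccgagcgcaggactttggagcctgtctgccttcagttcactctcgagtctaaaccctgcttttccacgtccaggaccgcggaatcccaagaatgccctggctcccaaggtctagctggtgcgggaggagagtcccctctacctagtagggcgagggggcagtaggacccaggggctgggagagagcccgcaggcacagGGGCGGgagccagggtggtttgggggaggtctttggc
Crtap: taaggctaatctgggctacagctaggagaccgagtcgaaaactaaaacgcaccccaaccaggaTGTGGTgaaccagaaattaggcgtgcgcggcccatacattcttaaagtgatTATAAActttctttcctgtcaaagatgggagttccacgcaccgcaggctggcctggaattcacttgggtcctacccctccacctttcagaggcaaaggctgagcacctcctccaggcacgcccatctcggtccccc
P3h1: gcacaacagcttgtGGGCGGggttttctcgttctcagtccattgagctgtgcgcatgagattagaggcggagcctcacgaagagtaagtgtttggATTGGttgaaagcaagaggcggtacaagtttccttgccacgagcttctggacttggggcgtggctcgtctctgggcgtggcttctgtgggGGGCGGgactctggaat
Ppib: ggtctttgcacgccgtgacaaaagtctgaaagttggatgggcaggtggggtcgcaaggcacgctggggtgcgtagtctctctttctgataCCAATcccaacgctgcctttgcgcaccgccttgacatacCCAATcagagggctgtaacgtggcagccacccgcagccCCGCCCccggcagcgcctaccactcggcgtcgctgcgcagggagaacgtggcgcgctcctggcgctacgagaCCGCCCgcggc

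Serpinf1, whose RNA differed most between the groups, had 3 CCAAT boxes and 2 RUNX cores and no GC box. The RUNX cores lay at -117 and -90 from the RefSeq start, not from the gene end given below. Of all 32851 promoter windows of the same length and place, 0.627% held 2 or more RUNX cores. For 2 or more CCAAT boxes this share was 4.82%. Crtap also had a RUNX core, at -187, a motif found in 14% of windows of its length, and a TATA box far from the start, at -136. Serpinh1 had a GC box at -37. P3h1, shown at the first of its RefSeq starts, had 2 GC boxes, where 15.1% of windows of its length held 2 or more, and a CCAAT box, held by 29.5%. Ppib had 2 CCAAT boxes and 2 GC boxes, and 10.1% and 16.7% of windows of its length held 2 or more of each. None of the 5 windows held the ER stress response element, present in 0.07% to 0.113% of windows, or the unfolded protein response element, present in 0.265% to 0.563%. The windows thus did not share any of the 6 motifs across all 5 genes.

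Serpinf1 encodes PEDF, a secreted serpin that no longer inhibits proteases, binds collagen and restrains vessel growth. The gene (ENSMUSG00000000753) lies on chromosome 11 (GRCm38, 75409769 to 75422701, minus strand). It had 873 and 1081 CPM in controls against 3320.2 and 4506 in knockouts. The groups were far apart, with the lower knockout 3.07 times the higher control. The means were 977 ± 147 against 3913 ± 838 CPM (SD, n = 2 each), a 4.01-fold higher level (log2 fold change 2.0, SE 0.36). Leaving out each library in turn, this value ran from 1.81 to 2.22. Per length, in TPM (counts divided by exon length, then scaled to a common sum), Serpinf1 ranked 84 and 48 of 31273 genes in control libraries, and 12 and 9 in knockout libraries. Among the 10 genes it stood in place 3 in both controls and in place 1 in both knockouts. A short noncoding gene just upstream on the same strand, Gm12336, had 0 to 5 counts per library. The coding neighbours did not move alike. Smyd4 averaged 16.9 ± 5.43 CPM against 19.6 ± 7.82 in the knockouts, with overlapping groups. Serpinf2, the gene of alpha-2-antiplasmin, averaged 2.24 ± 0.612 against 0.385 ± 0.327 CPM (SD, n = 2 each). Its counts were few, 26 and 42 in controls and 3 and 11 in knockouts (log2 fold change -2.52, SE 1.17).

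Of 57 genes of like abundance, those closest to Serpinf1 over the 4 libraries were Fmod, Anxa5 and Msx1, by Euclidean distance of gene-centred log2 CPM (0.30, 0.49 and 0.50). Fmod, a collagen-binding proteoglycan gene, had 581 and 634 CPM in controls and 2221 and 2352 in knockouts. Anxa5, an annexin gene, had 753 and 928 against 3147 and 2739. Msx1, a homeobox gene of the dental mesenchyme and part of that marker list, had 724 and 847 against 2912 and 2525. With 4 libraries this likeness says little more than that each gene was higher in both knockouts by a like amount.

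**Figure D2:**
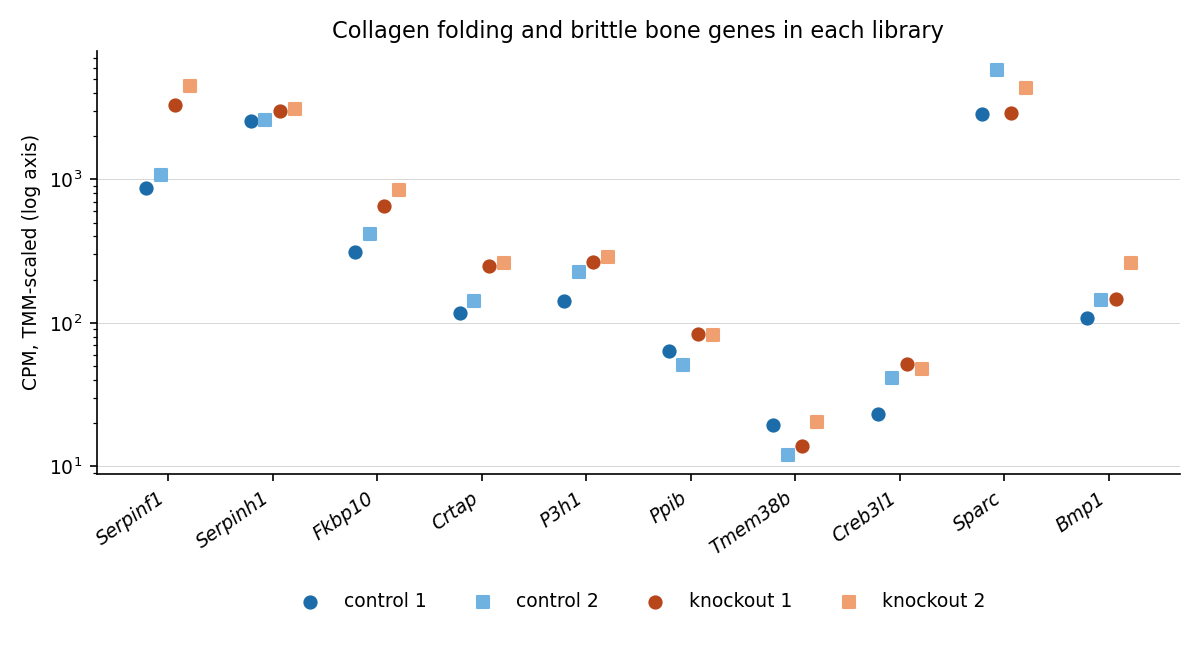
CPM (log axis) of the 10 genes, with 1 point per library. In 8 genes both knockouts lie above both controls, with the widest gap for Serpinf1, and in Tmem38b and Sparc the groups overlap.

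Fkbp10 and Serpinh1 encode an isomerase and a chaperone. Fkbp10 (chromosome 11, 100415697 to 100424824, plus strand) encodes FKBP65, an ER prolyl isomerase that also serves lysyl hydroxylation of collagen ends. It had 313 and 415 CPM in controls and 657 and 844 in knockouts. Both knockouts were above both controls, with means of 364 ± 71.8 and 750.3 ± 132 CPM (SD, n = 2 each), a 2.06-fold higher level (log2 fold change 1.04, SE 0.35). Serpinh1 (chromosome 7, 99345376 to 99353239, minus strand) encodes HSP47, the collagen-specific chaperone. It had 2563 and 2590.4 CPM in controls and 2988 and 3076 in knockouts. The groups did not overlap, but the difference was small, 1.18-fold (log2 fold change 0.23, SE 0.31). The means were 2576 ± 19.7 against 3032 ± 62.8 CPM (SD, n = 2 each), so the libraries of each group lay close together. The SE comes from a spread shared between genes and is larger than theirs.

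Fkbp10 lies head to head with P3h4, with 860 bases between them. P3h4 encodes a partner of the lysyl hydroxylase 1 complex. It had 67 and 109 CPM in controls and 153 and 224 in knockouts, a 2.14-fold higher level (log2 fold change 1.10, SE 0.40), close in size to Fkbp10. Of the exon length of Fkbp10, 6.58% is shared with Nt5c3b on the opposite strand. Strand is not known to be marked in these libraries, and Nt5c3b itself stood at 49.1 ± 12.4 against 79.0 ± 27.5 CPM (SD, n = 2 each).

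The 3 genes of the prolyl 3-hydroxylation complex were each higher in both knockouts. The complex adds a hydroxyl group to a proline of the type I collagen chain and also acts as a chaperone. Crtap (chromosome 9, 114375134 to 114390675, minus strand), its helper subunit, had 116 and 143 CPM in controls and 249.8 and 261 in knockouts. The 1.97-fold difference (log2 fold change 0.98, SE 0.32) was large against the spread, 129.5 ± 18.7 against 255 ± 7.60 CPM (SD, n = 2 each). P3h1 (chromosome 4, 119232915 to 119248975, plus strand), the enzyme itself, had 141 and 225 CPM in controls and 265 and 286 in knockouts. Control 2 came near the knockouts, and the log2 fold change of 0.59 (SE 0.36, 1.51-fold) was 0.32 without control 1 and 0.94 without control 2. Ppib (chromosome 9, 66060222 to 66066623, plus strand), the gene of cyclophilin B, had 63.8 and 50.7 CPM in controls and 83.2 and 82.5 in knockouts. The knockouts were almost equal, and the 1.45-fold difference (log2 fold change 0.53, SE 0.33) was 0.34 on the log2 scale without control 2. Ppib shares 25% of its exon length with Snx22 on the opposite strand, so its level is uncertain; Snx22 itself had 13 to 33 counts per library, or 0.904 to 1.91 CPM.

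Of the other genes of the P3h family, P3h4 was also higher in both knockouts, as given above, while P3h2 and P3h3 did not share this pattern. P3h2, which acts on basement membrane collagen, had 8.13 and 10.2 CPM in controls and 3.18 and 9.08 in knockouts. P3h3, the partner of P3h4, had 21 and 26.2 CPM against 25 and 31.9. In both genes the groups overlapped, with log2 fold changes of -0.58 (SE 0.67) and 0.27 (SE 0.39). P3h1 shares its start region with AU022252, which is read the other way, with 202 bases between them. AU022252 was also above the controls in both knockouts, at 13.4 ± 1.54 against 17.3 ± 1.48 CPM (SD, n = 2 each).

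Among the ER membrane genes, Creb3l1 was higher in both knockouts and Tmem38b was not. Creb3l1 (chromosome 2, 91982328 to 92024502, minus strand) encodes OASIS, an ER-bound transcription factor freed by cleavage that activates Col1a1 in osteoblasts. It had 23.2 and 41.1 CPM in controls and 51.4 and 48.0 in knockouts. Control 1 was low and control 2 came close to the knockouts, so the log2 fold change of 0.63 (SE 0.41, 1.54-fold) was 0.30 without control 1 and 1.06 without control 2. Tmem38b (chromosome 4, 53826045 to 53862019, plus strand) encodes TRIC-B, a cation channel that balances charge during calcium release from the ER. It had 19.4 and 12.0 CPM in controls and 13.8 and 20.2 in knockouts. The groups interleaved (log2 fold change 0.12, SE 0.47), and the sign turned without control 2 (-0.22) or without knockout 2 (-0.14). It was the least abundant of the 10 genes per length in every library.

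The secreted genes Sparc and Bmp1 differed from each other. Sparc (chromosome 11, 55394500 to 55423183, minus strand) encodes osteonectin, an acidic protein that binds collagen and mineral. It had 2875 and 5796 CPM in controls and 2917 and 4319 in knockouts. The spread within each group was wider than the difference between them, 4336 ± 2066 against 3618 ± 991 CPM (SD, n = 2 each). The log2 fold change of -0.26 (SE 0.44) turned to 0.30 without control 2 and to 0.0054 without knockout 1, and was -0.66 without control 1. Bmp1 (chromosome 14, 70474558 to 70520234, minus strand) encodes the procollagen C-proteinase, which cuts off the C-terminal end piece. It had 108 and 143 CPM in controls and 147 and 261 in knockouts. Knockout 1 lay just above control 2, and the log2 fold change of 0.70 (SE 0.40, 1.62-fold) was 0.27 without knockout 2, and 1.06 without knockout 1. With upper-quartile scaling the groups of Bmp1 overlapped.

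**Figure D3:**
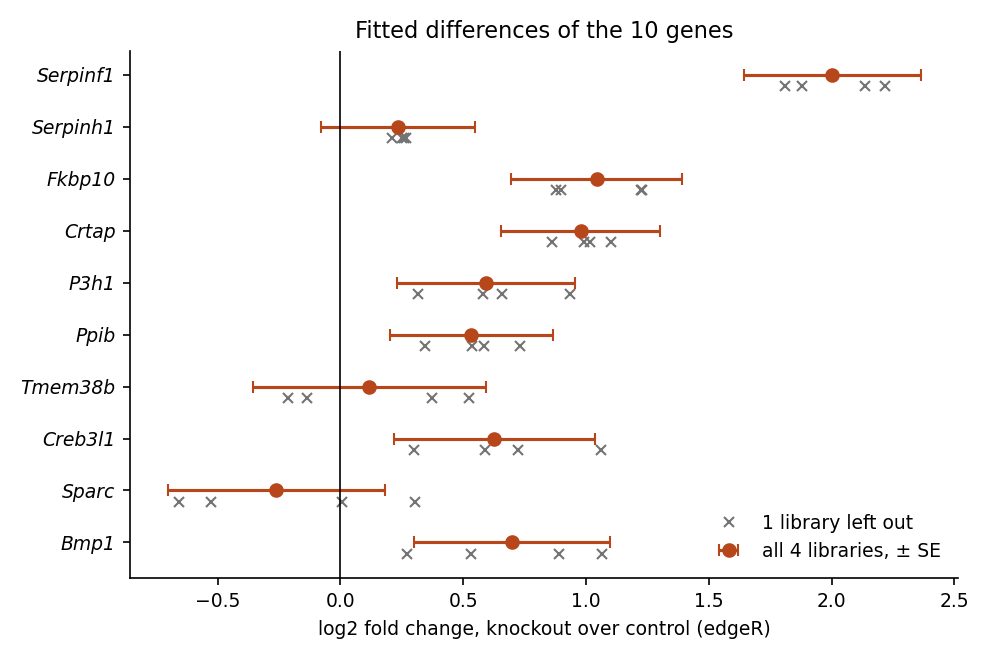
Fitted log2 fold changes of knockout over control (circles, bars ± SE) and the 4 values with 1 library left out (crosses) for each of the 10 genes. Serpinf1 stands at 2.0, Fkbp10 and Crtap near 1, and the crosses of Tmem38b and Sparc fall on both sides of 0.

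In all, 8 of the 10 genes had both knockouts above both controls and 0 had them below, where 25.8% of 17128 tested genes were higher and 24.9% lower in this way. The median log2 fold change of the 10 was 0.61, against 0.0024 over all tested genes. DESeq2, another count test, called 1 of them, Serpinf1, higher, and it called 2.72% of all genes higher. Nothing is read from these counts, since the list was drawn up with the contrast known. Summed, the 10 genes took 0.673% and 1.07% of the control counts and 1.09% and 1.38% of the knockout counts.

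By level per length, Serpinh1, Sparc and Serpinf1 were the most abundant, with means over the 4 libraries of 3559.6, 3314 and 3251 TPM. Their order changed between libraries, Serpinh1 or Sparc leading in the controls and Serpinf1 in the knockouts. Fkbp10 (594 TPM), Crtap (339 TPM) and P3h1 (187 TPM) followed in this order in every library. Ppib (65.5 TPM), Bmp1 (58.4 TPM) and Creb3l1 (49.3 TPM) changed places between libraries and are not told apart by these levels. Tmem38b had 13.2 TPM. The lengths are those of all annotated exons joined, which understates genes with long rare exons.

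The collagen chains that these proteins serve lay on the other side. Col1a1 had 17241 and 38662 CPM in controls and 14439.8 and 24543 in knockouts, with overlapping groups (log2 fold change -0.52, SE 0.49). Col1a2 had 2556 and 5599 CPM in controls and 1563 and 2482 in knockouts, below both controls (log2 fold change -1.01, SE 0.48). The gap was narrow, with the lower control 1.03 times the higher knockout. All 9 fibrillar chain genes had negative fold changes, with a median of -0.88. Beside 24.9% lower and 25.8% higher of all tested genes, 4 of the 9 were lower in both knockouts and 0 higher. Scaled by total counts alone, 2 were lower in both knockouts (Col2a1 and Col5a3), and the groups of Col1a2 overlapped. These directions rest in part on control 2: without it 3 of the 9 were positive (Col1a1, Col11a1 and Col11a2) and the median was -0.22, with Col1a1 at 0.15 and Col1a2 at -0.36. Without knockout 1, Col11a2 was positive, and Col1a1 stood at -0.18. Col5a3, a minor fibrillar chain, was 5.74-fold lower (113 ± 44.4 against 19.8 ± 9.24 CPM), and Col2a1, the cartilage chain, stood at 27.2 ± 13.1 against 14.3 ± 0.641 CPM (SD, n = 2 each). Control 2 had the most Col1a1 and Col1a2, and also the highest sums of 6 marker lists: periodontal ligament, osteoblast and osteocyte, odontoblast, pericyte, endothelial and Schwann cell. Periodontal ligament markers summed to 766 and 2475 CPM in controls against 539 and 1297 in knockouts, and pericyte markers to 827 and 1389 against 544 and 1310.1. Osteoblast and osteocyte markers (2 of 7 higher in both knockouts, 0 lower) summed to 512 and 2349.7 CPM against 807 and 1815. Odontoblast markers (2 of 7 higher, 4 lower) summed to 1034 and 1371 CPM against 581 and 863. The part of these shifts in the collagen difference was not tested.

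The 10 genes were also set against the type I chains within the same library. For each 1000 counts of Col1a1 plus Col1a2, Serpinf1 had 44.1 and 24.4 counts in controls and 207 and 167 in knockouts, 5.46 times the control mean. Fkbp10 had 15.8 and 9.37 against 41.0 and 31.2, a ratio of 2.87. Crtap had 5.88 and 3.23 against 15.6 and 9.64, a ratio of 2.77. On this scale 7 of the 10 genes were higher in both knockouts and 0 lower, where 30.8% of all tested genes were higher and 8.17% lower in this way. The 7 were Serpinf1, Fkbp10, Crtap, P3h1, Creb3l1, Sparc and Bmp1, while Serpinh1 and Ppib overlapped as Tmem38b did. Sparc kept closest to the chains, with 145 and 131 counts in controls and 182 and 159.8 in knockouts. The scale itself lifts the median log2 fold change of all genes to 0.48. Against that shift Serpinf1 (2.45), Fkbp10 (1.52), Crtap (1.47), Creb3l1 (1.25), P3h1 (1.15) and Bmp1 (1.11) stayed well above it, and above it by about as much as in CPM for Serpinf1, Fkbp10 and Crtap. Ppib (0.92) and Serpinh1 (0.68) lay somewhat above it, and Sparc (0.31) and Tmem38b (0.37) below it.

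**Figure D4:**
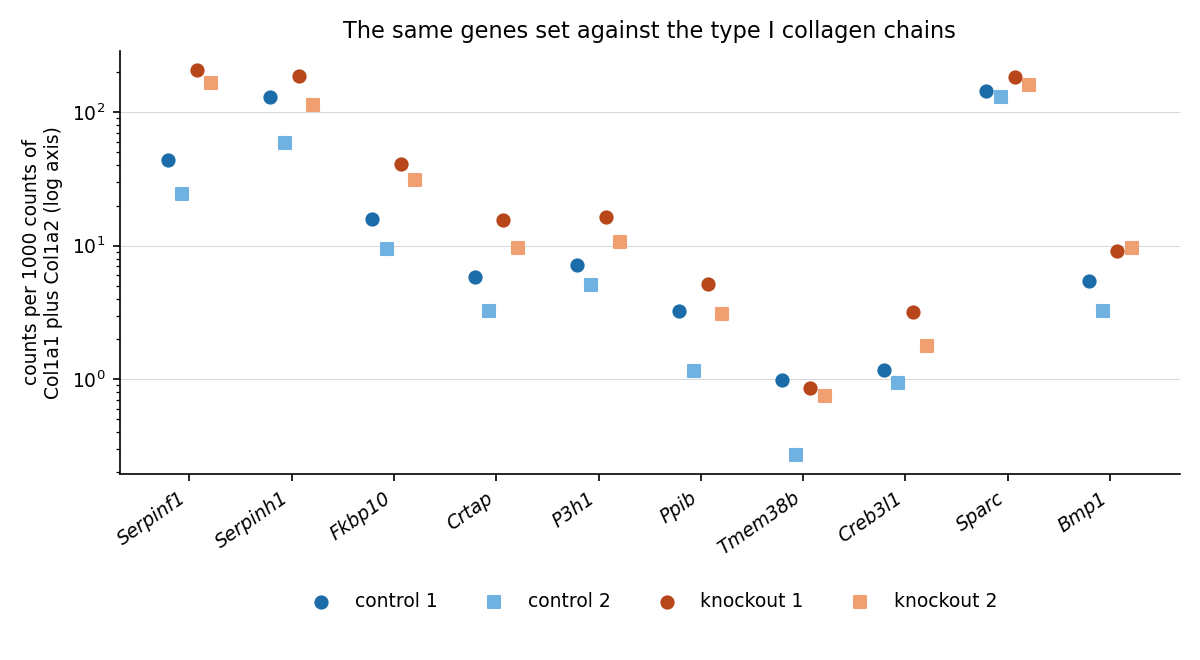
Counts of each gene per 1000 counts of Col1a1 plus Col1a2 in the same library (log axis), with 1 point per library. Serpinf1 moves from 24.4 to 44.1 in controls to 167 to 207 in knockouts, while Sparc stays between 131 and 182.

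The wider pathway was followed in 9 lists with 103 genes besides the 10, of which 101 were tested. No gene of the lists, and none of all 17128, passed edgeR's quasi-likelihood test at an adjusted p of 0.05 (0% called in either direction). Unadjusted p-values fell under 0.05 for 8 higher and 10 lower list genes, and for 1254 higher and 1694 lower genes of the whole table. DESeq2 called 2 list genes higher (Sp7 and Creb3l2) and 9 lower, where it called 2.72% and 5.69% of all genes. Over the lists 29 genes had both knockouts above both controls and 28 had them below, shares of 28.7% and 27.7% beside the 25.8% and 24.9% of all genes. The medians of the lists given next kept their sign under the other library scalings. Per count of the type I chains, those of the propeptide list and of the Sparc relatives turned to 0.36 and 0.38, below the 0.48 of all genes. With 1 library left out the same medians ran from -0.86 (without control 1) to 0.83 (without control 2) and from -0.77 (without knockout 1) to 0.25 (without control 2), and that of the propeptide list was also positive without knockout 1 (0.28).

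The ER prolyl isomerase and chaperone list held 8 of 16 genes higher in both knockouts and 0 lower, with a median log2 fold change of 0.50, which was 0.22 without knockout 1. The isomerases, a division made after the values were seen, had 5 of 6 higher (median 0.86), and the other chaperones 3 of 10 (median 0.18). Fkbp14, an isomerase of a connective tissue disorder, stood at 104 ± 15.9 against 213 ± 23.9 CPM, a log2 fold change of 1.03 (SE 0.33). Fkbp9 stood at 315 ± 76.5 against 598 ± 106 CPM, and Ppic, the gene of cyclophilin C, at 555 ± 38.7 and 1045 ± 194 (SD, n = 2 each). Hspa5, the gene of the general ER chaperone BiP, had a log2 fold change of -0.032 (SE 0.44). Of these 3 isomerases none passed edgeR (adjusted p = 0.202, 0.253 and 0.239).

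Among collagen hydroxylases and glycosyltransferases, 6 of 12 genes were higher and 3 lower in each knockout, with a median of 0.35, which was 0.23 without control 1, 0.53 without knockout 1 and 0.16 without knockout 2. Scaled by relative log expression or the upper quartile, 4 of them were higher. Plod2, the lysyl hydroxylase that works with Fkbp10 on collagen ends and itself a brittle bone gene, stood at 107 ± 40.7 against 199.9 ± 53.5 CPM (log2 fold change 0.91, SE 0.41). Colgalt2, a galactosyltransferase gene, stood at 10.5 ± 4.66 against 4.52 ± 2.74 CPM (SD, n = 2 each). With P3h4 these were the list genes with the widest differences among those whose groups did not overlap.

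ER stress transducers and export genes were mixed, with 8 of 21 higher and 4 lower in both knockouts (median 0.26, or 0.16 without control 1). The 3 listed relatives of Creb3l1 (Creb3, Creb3l2 and Creb3l4) were higher in both knockouts, and Creb3l2, which serves collagen export in cartilage, stood at 113 ± 35.2 against 283 ± 98.2 CPM (SD, n = 2 each), a 2.50-fold difference. Its adjusted p was 0.195 in edgeR. Creb3l4 stood at 2.69 ± 0.161 against 5.64 ± 1.01 CPM, and Sec23a, a COPII coat gene, at 134 ± 90.3 and 278 ± 39.9 (SD, n = 2 each). The 3 KDEL receptor genes, which return ER proteins, were higher in both knockouts. Of 7 sensors and factors of the general unfolded protein response, 0 were higher and 4 lower in both knockouts: Atf6, Xbp1, Eif2ak3 and Atf4. The gap of Xbp1 was narrow, with the lower control 1.004 times the higher knockout. Scaled by total counts or the upper quartile 5 of the 7 were lower, and per count of the type I chains 1 was. These divisions of the list were made after its values were seen.

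Other brittle bone genes went both ways, with 8 of 16 tested genes above and 3 below both controls in the knockouts (median 0.33, or 0.56 without control 2). Sp7, whose regulatory sequence drives the Cre, had 43.9 and 60.7 CPM in controls against 131 and 146 in knockouts. The labels do not tell if the transgene carries Sp7 bases that were counted. Lrp5, a Wnt co-receptor gene, stood at 4.95 ± 3.17 against 14.6 ± 8.99 CPM. Tent5a, a poly(A) polymerase gene that stabilises collagen RNA in osteoblasts, was 3.64-fold lower (33.3 ± 8.68 against 9.14 ± 1.43 CPM). Ccdc134 was 3.01-fold lower (53.7 ± 27.7 against 17.8 ± 3.19 CPM, SD, n = 2 each). None passed edgeR (adjusted p = 0.163 for Tent5a and 0.190 for Ccdc134), and DESeq2 called both lower.

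Propeptide processing genes and Bmp1 partners had 1 of 10 genes higher and 3 lower in both knockouts, with a median of -0.22. The higher gene was Pcolce, the enhancer of Bmp1, with 448 and 556 CPM in controls and 841 and 981 in knockouts. Its relative Pcolce2 stood at 26.4 ± 18.7 against 8.10 ± 6.30 CPM. Adamts14, a procollagen N-proteinase gene, was 8.22-fold lower (8.31 ± 1.03 against 1.01 ± 0.480 CPM), and Tll2, a relative of Bmp1, stood at 1.86 ± 0.117 against 0.315 ± 0.207 CPM (SD, n = 2 each). Relatives of Sparc had 1 of 7 higher, Fstl1 (921 ± 403 against 1515 ± 78.4 CPM), and 2 lower. Of these Spock1 stood at 42.4 ± 6.80 against 26.2 ± 10.7 CPM (SD, n = 2 each), and Spock3 had 48 and 133 counts in controls against 19 and 0 in knockouts.

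ER calcium genes, the surroundings of Tmem38b, were low in the knockouts, with 6 of 9 tested genes lower and 0 higher (median -1.40, or -0.68 over 8 tested genes without control 2). Atp2a3, a calcium pump gene, was 8.92-fold lower (245 ± 61.4 against 27.4 ± 7.66 CPM), and Itpr3, an IP3 receptor gene, 3.53-fold lower (36.5 ± 11.5 against 10.3 ± 1.24 CPM, SD, n = 2 each). Ryr1, a ryanodine receptor gene, had 11 and 16 counts in controls and 1 and 0 in knockouts. Leukocyte markers were lower between the same groups by the sums given above, and their part in these differences was not tested. Receptors of PEDF and other secreted serpins had 4 of 8 genes lower and 0 higher in both knockouts (median -0.72). Plxdc1, a proposed PEDF receptor gene of vessels, was 2.72-fold lower (60.8 ± 8.56 against 22.4 ± 4.37 CPM, SD, n = 2 each), beside endothelial marker sums of 657 and 1073 CPM in controls and 558 and 516 in knockouts.

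**Figure D5:**
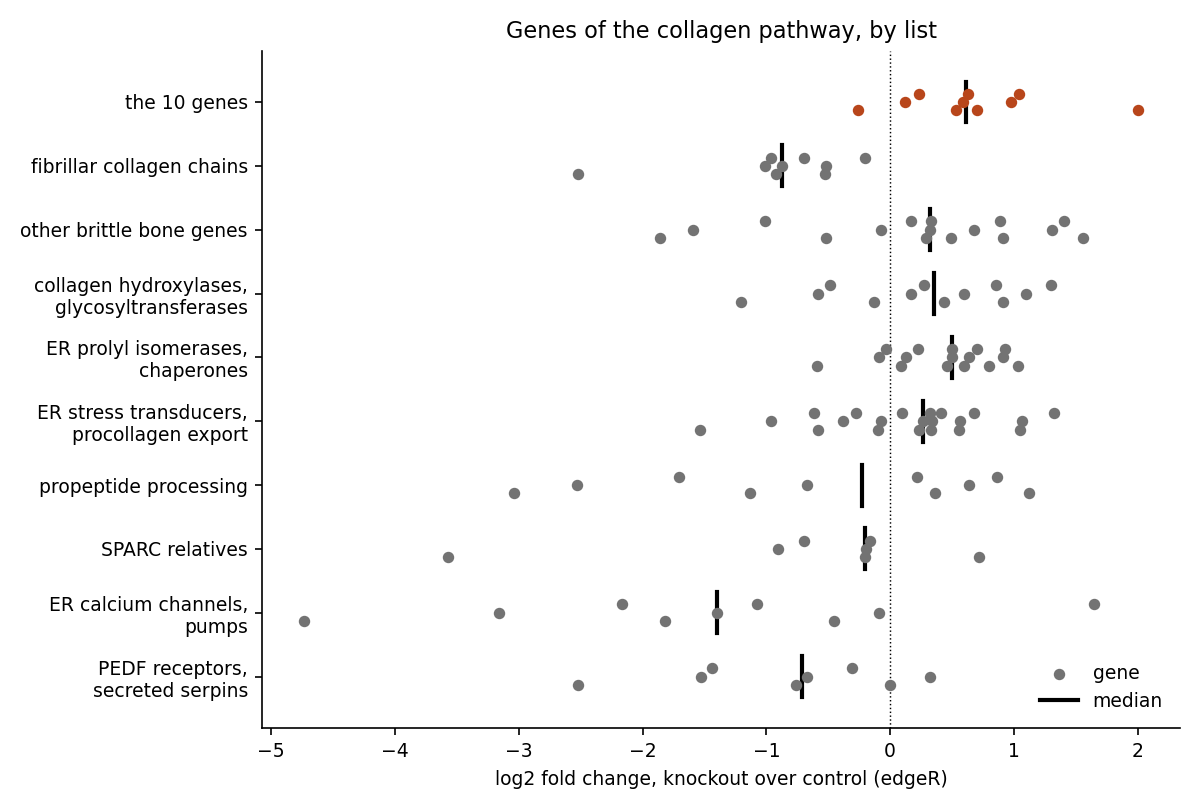
Fitted log2 fold changes of knockout over control for the 10 genes (top row) and the tested genes of 9 pathway lists, with 1 point per gene and a bar at each median. Medians run from 0.61 for the 10 genes to -1.40 for ER calcium genes, and fibrillar collagen chains lie wholly below 0, although 3 of the 9 turn positive without control 2.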

How the data were processed

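Polyadenylated RNA of 4 libraries was copied by template-switching reverse transcription, amplified in 14 PCR cycles and fragmented with a library kit, per the labels' protocols. The deposited values are raw counts per Ensembl gene ID. The submitters' processing notes name featureCounts 2.0.1, Bowtie2 2.3.5.1, Trim Galore 0.6.6 and the build GRCm38. Annotation release, strand setting and multi-mapping rules were not given in the sources used here. No step that marks strand or single molecules is described, and counting limits cover counting error only.

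Of 55487 genes, 55227 were found by ID in GENCODE M21 (GRCm38), which gave symbols, coordinates and exon lengths. The test was edgeR's quasi-likelihood test (edgeR 4.0.16, R 4.3.3; TMM scaling, filterByExpr, genotype as the only term, two-sided, Benjamini-Hochberg over 17128 genes, threshold 0.05). CPM are TMM-scaled, and fold changes are fitted, knockout over control. The SE is the absolute log2 fold change divided by the square root of F. The biological coefficient of variation was 49.2%. DESeq2 1.42.0, limma-voom (limma 3.58.1), other scalings and filters, a replicate block and leaving out each library were alternatives.

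The 10 genes, the 9 pathway lists and the 10 marker lists were chosen with earlier results of these data known. In each list the text names up to 3 genes with the widest fold change among those whose groups do not overlap (1 such gene is not reported here), besides Col1a1, Col1a2, P3h2, P3h3 and P3h4; Hspa5, Sp7, Pcolce, the 4 unfolded protein response genes and neighbouring genes were named after their values were seen. For likeness to Serpinf1, log2(CPM + 1) was compared among genes with a mean within 1 of its own.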

Additional observations from a re-analysis of the deposited data

How the results depend on the processing

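Across 11 alternatives per gene, 8 of the 10 genes kept the sign of their log2 fold change in every one, and 105 of 110 values kept it. The exceptions were Tmem38b without control 2 (-0.22) and without knockout 2 (-0.14), within a range of -0.22 to 0.52 with 1 library left out, and Sparc without control 2 (0.30), without knockout 1 (0.0054) and per summed count of Col1a1 and Col1a2 (0.31), within a range of -0.66 to 0.30 with 1 library left out. The cause was not tested. Under other scalings, 7 or 8 of the 10 were higher in both knockouts and 0 lower. With 1 library left out, 8 or 9 were higher in the knockouts, and 0, or 1 (Sparc) without control 1, lower. The counts with 1 library left out could not fall, since groups that are apart stay apart with fewer libraries.

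Calls over all genes moved most. DESeq2 called 472 higher and 989 lower genes, and 2 and 9 in the pathway lists. Without the low-count filter edgeR called 449 and 1005, and 2 and 11 in the lists, but its prior degrees of freedom were then infinite, so that a gene's own spread did not enter its p. Limma-voom and the stricter filter called 0 in each. With 1 library left out edgeR called 0 to 215 higher and 0 to 703 lower genes, and 0 to 4 lower list genes. The highest counts over all genes came without knockout 1, and those of the lists without control 1 or without knockout 1. The list genes called in these settings were only partly the same. Serpinf1 was called higher by DESeq2 and, in edgeR, with the replicate block and without the filter. As Serpinf1 was listed with this contrast in view, nothing is read from these calls. With the replicate block edgeR called 59 higher and 185 lower genes and 1 lower list gene. The labels name no pairing, and the deviations of same-numbered libraries correlated at 0.125 over genes. Depth gave at least 189 counts per library for each of the 10 genes. The limit on each difference is the spread between 2 libraries per group.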
